A study of Mus musculus with 5 samples.

Results

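Microtubule motor genes were examined in cultured mouse neural stem/progenitor cells (NSPCs) with and without the p75 neurotrophin receptor (p75NTR, gene Ngfr). Members were all symbols of the deposited table that begin as kinesin heavy chains (Kif and Kifc), kinesin light chains (Klc), cytoplasmic dynein chains (Dync), dynein light chains (Dynl) or dynactin subunits (Dctn). This gave 64 of 12588 genes and 121 of 22227 transcripts. One of the 64, Kif1bp, matches the spelling but encodes a kinesin-binding protein that is no motor, which leaves 63 motor subunits.

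RNA came from NSPCs of C57BL/6J mice grown without further treatment in medium with EGF and FGF-2, each at 20 ng/ml. There were 2 libraries from wild-type littermates (labelled WT, replicates 1 and 4) and 3 libraries labelled p75NTR-/- (replicates 1, 2 and 4), in which both Ngfr alleles carry a constitutive mutation. The labels give E12.5 embryos as the source, whereas the paper describes cultures from the adult subventricular zone. Libraries are called WT 1, WT 4 and p75NTR-/- 1, 2 and 4 below.

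Kinesins and cytoplasmic dynein are ATP-driven motors that walk along microtubules. Most kinesins with an N-terminal motor domain move towards the plus end and carry vesicles, organelles or, in mitosis, spindle microtubules, whereas dynein, with its activator dynactin, moves towards the minus end. In neural progenitors the mitotic motors build the spindle and midzone of dividing cells, and dynein with Lis1 moves the nucleus between divisions.

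The 5 libraries held 11688211 to 14452396 counts, and 3 features of them bear on every comparison. Ngfr went against the labels. It had 0.98 and 2.08 normalized counts in WT 1 and WT 4, each at or under the limit of 3 counts, and 9.89, 141 and 251 in p75NTR-/- 1, 2 and 4. The deposited values cannot tell whether these reads lie in the mutated part of the gene, so groups are named by their labels throughout. In addition, WT 4 and p75NTR-/- 4 stood together, apart from the other 3 libraries, on the first principal component of all genes (51.7% of the variance), and WT 1 stood apart on the second (36.5%). Beyond that, all 8 markers of neural stem and progenitor cells were listed, 0 of 5 microglial markers were, and 1 of 8 endothelial, fibroblast and blood markers was (0.17 to 0.55 TPM). The summed TPM (a level per transcript length, scaled to the library) of 6 astrocyte markers was 1402 in WT 1, 868 in WT 4, and 634, 675 and 911 in p75NTR-/- 1, 2 and 4. For neurons, 5 of 9 markers were listed, with sums of 941 and 738, then 1009, 993 and 684, in the same order. For the oligodendrocyte lineage, 4 of 7 were listed, with sums of 195 and 110, then 269, 304 and 109. Map2 (mean 817) and Olig2 (mean 188) made up most of these sums.

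Mean levels of the motor genes ran from 0.028 to 1103 TPM and differed by role. Unless stated, values in this paragraph are TPM of the gene sum, with the mean and SD over the 5 libraries. Dynein light chains held the 6 highest levels. Dynll1, the LC8 light chain that dimerizes many partners beside dynein, was highest (1103 ± 182), followed by Dynlt1b (657 ± 184) and Dynll2 (638 ± 92.0), which overlapped in their spread. Dynlrb1 (517 ± 25.5) and Dynlt1f (496 ± 68.8) also did not differ beyond their spread, and Dynlt3 (205 ± 25.1) was lower. Next came the dynactin subunit Dctn2 (127 ± 14.2), the dynein intermediate chain Dync1i2 (94.3 ± 6.89) and Dctn3 (82.9 ± 4.74). The highest kinesin was Kif1a, a carrier of synaptic vesicle precursors (78.1 ± 22.6), beside Kif5b, the ubiquitous kinesin-1 heavy chain (72.7 ± 7.19). The neuronal kinesin-1 heavy chains Kif5a and Kif5c were near the bottom, with mean TPM of 0.492 and 0.81. Mitotic motors lay between 2.51 and 31.04. The order rests on the lengths behind the authors' TPM, and by counts per annotated base it would differ. Dynlt1b had a mean of 2834 normalized counts on a main transcript of 771 bases, and Dynll1 had 3023 on 2030 bases.

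**Figure D1:**
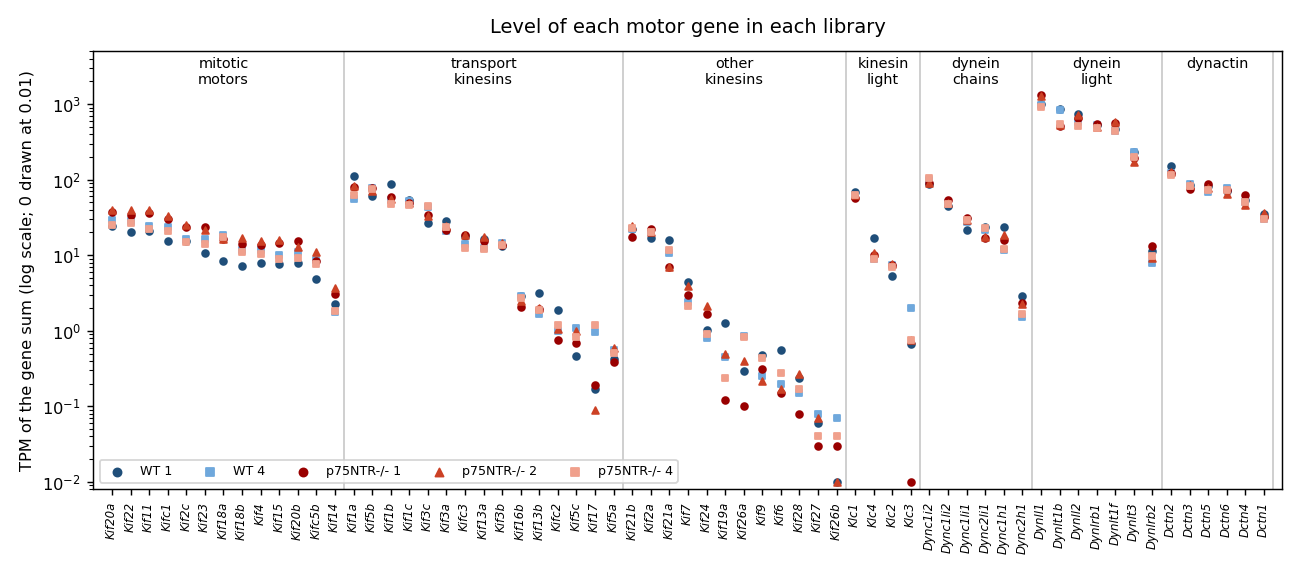
TPM of the gene sum (log scale, with 0 drawn at 0.01) for the 63 motor subunits, grouped by role and ordered by mean within a role. Each point is 1 library. Dynll1, the highest, has a mean of 1103 TPM, while Kif26b has a mean of 0.028.

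To ask which motor genes differed between the labels, limma was run on log2(normalized count + 1) of gene sums over the whole table. Calls required a mean of 50 or more normalized counts, a change of 1.5-fold or more in either direction, and p under 0.05 after Benjamini-Hochberg adjustment. limma called 0 of the 64 members (background: 1 of 12588 gene sums, 0.00794%). The lowest limma adjusted p among members was 0.93. At an unadjusted p under 0.05, 2 of the 52 members with a mean of at least 50 were left (Dynlt1b and Kif21a), against 1.24% of all such gene sums. On the recovered counts, edgeR called 0 members (background 0.0%), and DESeq2 called 1, Dynlt1b (background 0.0556%). With 2 against 3 libraries, an exact two-sided permutation test of a single gene cannot give less than p = 0.1. The values under the 2 labels did not overlap for 9 of the 52 members, against 14.7% of all gene sums, with 1 above (Dync1li1, background 7.76%) and 8 below (Dctn3, Dctn4, Dynlrb1, Dynlt1b, Dynlt3, Kif16b, Kif1c and Kif21a, background 6.96%). Over both directions, the share without overlap was thus near that of all genes. By direction, the share below exceeded its background and the share above fell short of it, which was not tested. The median log2 fold change was 0.00 over the 52 members and 0.02 over all gene sums with a mean of at least 50. All fold changes are on the log2(normalized count + 1) scale, p75NTR-/- minus WT, with the limma standard error, and understate the change of low genes.

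The kinesins that work in mitosis moved together across the 5 libraries, but the labels did not separate them. All 13 had a mean of at least 50 normalized counts and a log2 fold change above 0, where 52.6% of all such gene sums did. The changes ran from 0.31 to 0.58 with a median of 0.46, 0 of 13 were called, and the limma adjusted p was 0.93 for each.

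Kif11 (Eg5), the tetrameric motor that pushes the spindle poles apart, had normalized counts of 1592 and 1813 in WT 1 and WT 4 and 2667, 2881 and 1709 in p75NTR-/- 1, 2 and 4. Its 2 highest values came from p75NTR-/- 1 and 2, while p75NTR-/- 4 fell between the WT libraries. The label means were 1702 ± 157 (SD, n = 2) and 2419 ± 624 (SD, n = 3), with a log2 fold change of 0.47 ± 0.28.

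Kif23 (MKLP1), which with Racgap1 forms centralspindlin and bundles midzone microtubules, had normalized counts of 658 and 981 in WT 1 and WT 4 and 1465, 1303 and 844 in p75NTR-/- 1, 2 and 4. Again p75NTR-/- 4 lay between WT 1 and WT 4, and the log2 fold change was 0.55 ± 0.33. The kinesin-8 Kif18b, which acts with Kif2c at microtubule plus ends, had normalized counts of 388 and 634 in WT 1 and WT 4 and 750.0, 905 and 600.1 in p75NTR-/- 1, 2 and 4 and the largest change of the 13 (0.58 ± 0.30). Its lowest library was WT 1, and its next was p75NTR-/- 4.

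Kif15, which can hold the spindle bipolar beside Kif11, had normalized counts of 510.3 and 565 in WT 1 and WT 4 and 873, 1026 and 526 in p75NTR-/- 1, 2 and 4 and a log2 fold change of 0.53 ± 0.33. The minus-end directed kinesin-14 Kifc1 (HSET), which focuses spindle poles, had normalized counts of 628 and 832 in WT 1 and WT 4 and 1145, 1224 and 764 in p75NTR-/- 1, 2 and 4 (0.50 ± 0.28). In both genes p75NTR-/- 1 and 2 stood above the other 3 libraries.

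Kif20a (MKLP2), which brings the chromosomal passenger complex to the midzone, was the mitotic motor with the highest TPM (31.04 ± 7.01) and had normalized counts of 1508 and 1811 in WT 1 and WT 4 and 2294, 2396 and 1569 in p75NTR-/- 1, 2 and 4. Its change was the smallest of the 13 (0.31 ± 0.25). The chromokinesins Kif22 (Kid) and Kif4, which bind chromosome arms, had log2 fold changes of 0.46 ± 0.25 and 0.40 ± 0.27. The microtubule depolymerase Kif2c (MCAK), which corrects kinetochore attachments, had one of 0.36 ± 0.27, and the midbody motors Kif14 and Kif20b had 0.44 ± 0.34 and 0.50 ± 0.29.

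Kif18a, which dampens chromosome oscillations at the metaphase plate, was the member with another order. It had normalized counts of 514 and 1133 in WT 1 and WT 4 and 971, 984 and 1078 in p75NTR-/- 1, 2 and 4, so that WT 1 alone was low and WT 4 was highest, and its log2 fold change of 0.40 turned to -0.17 without WT 1. Kifc5b, a close copy of Kifc1, had 196 and 351 in WT 1 and WT 4 and 331, 434 and 307 in p75NTR-/- 1, 2 and 4. Of the 31-base words of the main transcripts, 54.9% in Kifc5b and 64.8% in Kifc1 occur in other genes, so reads could be split between the copies and their separate values are uncertain.

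**Figure D2:**
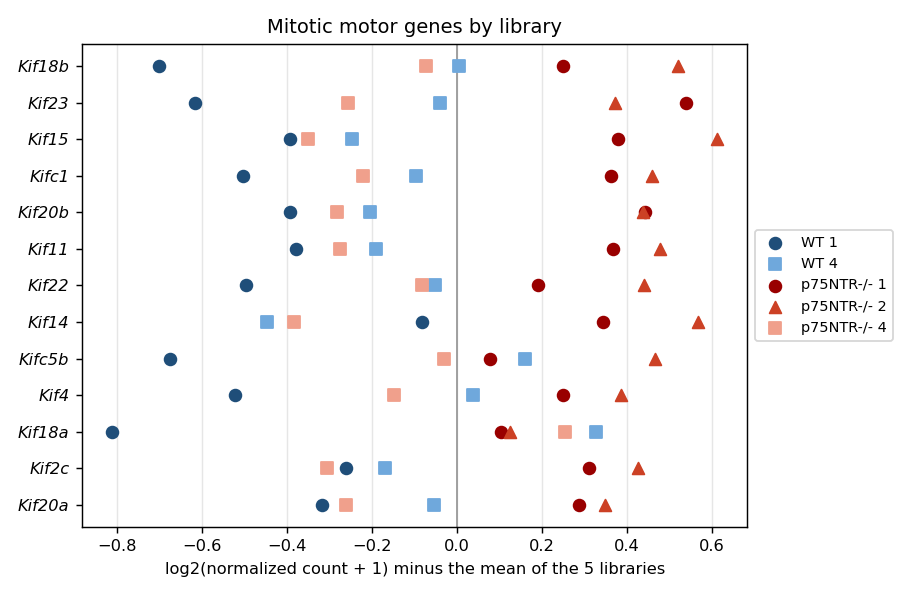
Deviation of log2(normalized count + 1) from the mean of the 5 libraries for the 13 mitotic motors, ordered by log2 fold change, with 1 point per library. p75NTR-/- 1 and 2 stand above the other 3 libraries in 11 of 13 genes, and p75NTR-/- 4 lies beside WT 4.

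By library, p75NTR-/- 1 and 2 were both above the other 3 in 11 of the 13 genes (22.8% of all gene sums), the exceptions being Kif18a and Kifc5b. WT 1 was the lowest library in 11 of 13 (33.3% of all), and p75NTR-/- 4 was below WT 4 in 12 of 13 (50.5% of all), with Kif14 as the exception. The median log2 difference therefore depended on the libraries compared. It was 0.84 without the libraries numbered 4, with 13 of 13 above 0, and -0.10 between the libraries numbered 4 alone, with 1 of 13 above 0. Without WT 1 it was 0.26, with 12 of 13 above 0. Over all gene sums the same 3 medians were 0.03, 0.00 and 0.01. In these bulk RNA samples, fewer dividing cells and less of each RNA per cell cannot be told apart.

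Genes that act in division but whose symbols do not match those of the members had a similar order of libraries. They include Cenpe, a mitotic kinesin under another spelling, which is counted here as a spindle partner. All 20 spindle and midzone partners had a log2 fold change above 0 (median 0.43), 0 were called, and p75NTR-/- 1 and 2 were above the other 3 libraries in 18 of 20. Among them, the kinetochore proteins Zwilch (0.62 ± 0.29) and Kntc1 (0.72 ± 0.35), which recruit dynein as parts of the RZZ complex, and the kinase Plk1 (0.57 ± 0.29) had the lowest unadjusted p. Their median was 0.86 without the libraries numbered 4 and -0.11 between them. All 10 proliferation markers also had a log2 fold change above 0 (median 0.49, 0 called, 10 of 10 with p75NTR-/- 1 and 2 above the others). Of these, the replication proteins Pcna (0.67 ± 0.33) and Mcm2 (0.87 ± 0.43) and the transcription factor Mybl2 (0.43 ± 0.22), whose change was below the list's median, had the lowest unadjusted p. The summed astrocyte markers, given above, were lowest in p75NTR-/- 1 and 2 and highest in WT 1. By gene, WT 1 was the highest library in 3 of the 6. The part of the astrocyte markers in the values of the mitotic motors was not tested.

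Since most of these genes shared an order of libraries, their promoters were read from RefSeq (GRCm38.p6), where each spans 250 bases before to 50 after the start. A promoter was found for 47 of the 64 members and for 12 of the 13 listed mitotic motors, all but Kif20a. Promoters of genes that peak in G2 and mitosis often hold a cell cycle genes homology region (CHR, TTTGAA), through which MuvB complexes act, and CCAAT boxes, which NF-Y binds. The letters TTTGAA occurred on either strand in 11 of the 12 promoters of mitotic motors, all but that of Kif18a, and in 17.9% of all 32851 promoters. They occurred in 1 of 12 promoters of 10 transport kinesins (that of Kif1a) and in 14 of 18 promoters of 16 spindle and midzone partners. CCAAT, on either strand, was in 8 of the 12 mitotic, 4 of the 12 transport and 37.4% of all promoters. Both motifs were present together in 8 of 12, 0 of 12 and 6.95%. Positions are those of the first base of a match read along the gene's strand, also where the motif lies on the other strand. By this position, TTTGAA lay between -20 and +30 of the start in 9 of the 12 mitotic promoters and in 2.6% of all promoters. That window was chosen after the positions were seen. Promoters of genes with a mean of at least 50 held TTTGAA in 11.5%, CCAAT in 38.3% and both in 4.8%. For TTTGAA in that window, their share was 1.62%. Kifc1 and its close copy Kifc5b are each counted among the mitotic promoters. A match is a description of these letters and no evidence of binding.

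The stretch from 80 bases before to 50 after the start is printed for 7 of the mitotic motors and for 2 transport kinesins, to show where the motifs lie. Capitals mark TTTGAA or CCAAT on either strand (TTCAAA and ATTGG on the other), and in these windows no match of one overlaps a match of the other.
Kif11, chr19:37376302-37376431 (forward strand): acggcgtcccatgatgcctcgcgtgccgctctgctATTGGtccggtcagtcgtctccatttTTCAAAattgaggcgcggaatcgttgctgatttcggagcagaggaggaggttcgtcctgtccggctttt
Kif15, chr9:122951001-122951130 (forward strand): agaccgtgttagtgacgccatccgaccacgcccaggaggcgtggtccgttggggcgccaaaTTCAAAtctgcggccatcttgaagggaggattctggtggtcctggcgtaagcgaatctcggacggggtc
Kif18b, chr11:102925075-102925204 (reverse strand): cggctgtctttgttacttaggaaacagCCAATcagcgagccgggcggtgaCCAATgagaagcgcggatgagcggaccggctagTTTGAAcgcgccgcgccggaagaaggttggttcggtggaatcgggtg
Kif20b, chr19:34922278-34922407 (forward strand): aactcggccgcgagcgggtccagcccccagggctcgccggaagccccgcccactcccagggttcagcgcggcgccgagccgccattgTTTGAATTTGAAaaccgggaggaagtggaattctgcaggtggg
Kif22, chr7:127042371-127042500 (reverse strand): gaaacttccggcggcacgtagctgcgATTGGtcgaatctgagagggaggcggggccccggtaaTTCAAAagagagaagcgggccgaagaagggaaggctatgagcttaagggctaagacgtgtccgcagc
Kif23, chr9:61946750-61946879 (reverse strand): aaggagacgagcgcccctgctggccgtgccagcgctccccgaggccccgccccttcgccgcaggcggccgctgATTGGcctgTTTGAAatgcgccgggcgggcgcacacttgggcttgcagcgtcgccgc
Kifc1, chr17:33890584-33890713 (reverse strand): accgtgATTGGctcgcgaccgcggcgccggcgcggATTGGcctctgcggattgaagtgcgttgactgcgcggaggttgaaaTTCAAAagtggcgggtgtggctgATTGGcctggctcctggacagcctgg
Kif1b, chr4:149307684-149307813 (reverse strand): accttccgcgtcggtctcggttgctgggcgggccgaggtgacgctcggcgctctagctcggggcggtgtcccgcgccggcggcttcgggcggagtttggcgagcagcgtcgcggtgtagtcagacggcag
Kif1c, chr11:70700468-70700597 (forward strand): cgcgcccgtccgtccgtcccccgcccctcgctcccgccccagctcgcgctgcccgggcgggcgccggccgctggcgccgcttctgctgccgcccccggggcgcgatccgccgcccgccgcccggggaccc

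Read along the gene's strand, the match of TTTGAA began at -19 in Kif11 and Kif15 (and in Kif15 again at -234). It began at -17 and again at -215 in Kif22, at 2 in Kifc1, at 3 in Kif23 and at 4 in Kif18b. In the windows printed for Kif11, Kif15, Kif22 and Kifc1 the motif is on the other strand, as TTCAAA. Kif20b held TTTGAA at 8 and 14, side by side. Kif14 (-228) and Kif2c (-103) held it further from the start, where the window printed does not reach. The windows printed for Kif1b and Kif1c held neither motif, but Kif1b held CCAAT just upstream of its window, at -118 and -87 from the same start.

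**Figure D3:**
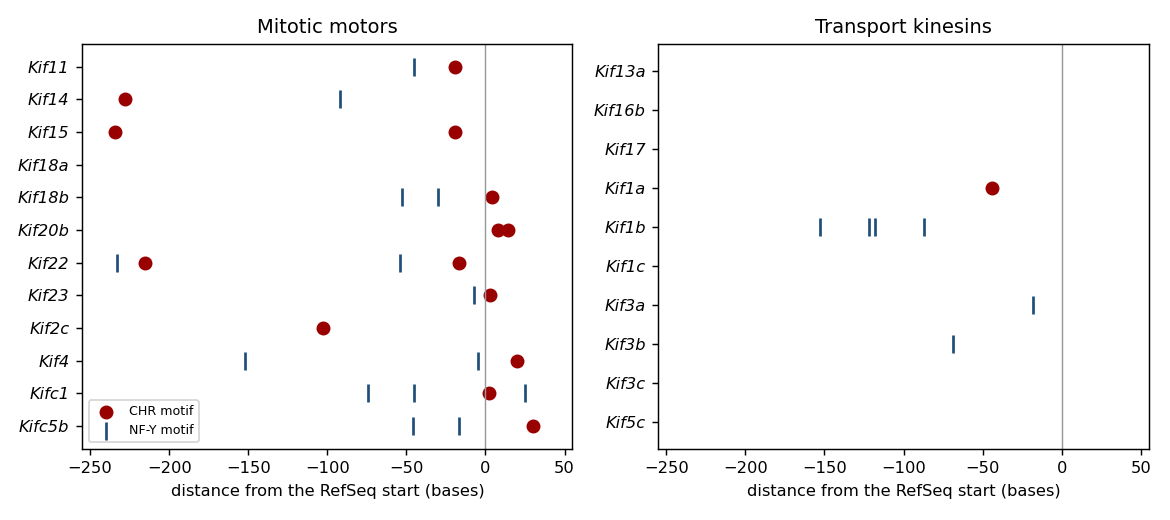
Distance from the RefSeq start, in bases, of the CHR motif (circles) and of the NF-Y motif (bars) on either strand in the promoters of 12 mitotic motors and 10 transport kinesins. In 9 mitotic promoters a circle lies between -20 and +30, and the 1 circle among transport kinesins is that of Kif1a, which lies upstream of that window.

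Most transport kinesins had WT 1 at one end of the 5 libraries, in either direction. Of the 12 with a mean of at least 50, WT 1 was the highest library in 7 (Kif13a, Kif13b, Kif1a, Kif1b, Kif1c, Kif3a and Kifc3, 28.4% of all gene sums) and the lowest in 4 (33.3% of all). In 0 of the 12 were p75NTR-/- 1 and 2 both above the other 3. Of the 15 listed, 12 had a mean of at least 50, 4 of these had a log2 fold change above 0 and 8 below, and the median was -0.10, which moved to -0.02 without WT 1 and to -0.21 without the libraries numbered 4. Kif1a had normalized counts of 7988 and 4007 in WT 1 and WT 4 and 5211, 5816 and 4449 in p75NTR-/- 1, 2 and 4. Only WT 1 was high among its libraries, WT 4 was the lowest, and the log2 fold change of -0.14 ± 0.34 turned to 0.36 without WT 1.

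Kif1b, a kinesin-3 that carries mitochondria and synaptic vesicle precursors, had normalized counts of 10288 and 5825 in WT 1 and WT 4 and 6376, 5858 and 5560.1 in p75NTR-/- 1, 2 and 4. WT 1 again stood above 4 similar libraries, and the log2 fold change of -0.39 ± 0.28 was 0.02 without it. Kif1c, a kinesin-3 that carries dense core vesicles and integrins, had normalized counts of 3504 and 3389 in WT 1 and WT 4 and 3095, 2985 and 2992 in p75NTR-/- 1, 2 and 4. Here the labels did not overlap and the p75NTR-/- libraries lay close together, but the difference was small (-0.19 ± 0.15, limma adjusted p = 0.93). Kif16b, which moves early endosomes, had normalized counts of 271 and 273 in WT 1 and WT 4 and 188, 229 and 256 in p75NTR-/- 1, 2 and 4, also without overlap (-0.29 ± 0.20).

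Kif5b had normalized counts of 4080.4 and 5243 in WT 1 and WT 4 and 5101, 4691 and 5159 in p75NTR-/- 1, 2 and 4, with WT 1 lowest and the other 4 close together (0.11 ± 0.19). Kif13a, a kinesin-3 that carries endosomes and mannose-6-phosphate receptors, had normalized counts of 1435 and 1143 in WT 1 and WT 4 and 1185, 1278 and 1084 in p75NTR-/- 1, 2 and 4, and the labels overlapped (-0.12 ± 0.19). Of the kinesin-2 subunits, which drive intraflagellar transport, Kif3b was the steadiest of the 52 members, with a highest library 1.09 times its lowest and a log2 fold change of 0.00. Kif17, the homodimeric kinesin-2, had normalized counts of 11.8 and 63.5 in WT 1 and WT 4 and 12.9, 6.01 and 80.3 in p75NTR-/- 1, 2 and 4 and was high in the libraries numbered 4 under either label.

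The summed TPM of mitotic motors was 154 and 211 in WT 1 and WT 4 and 270, 291 and 190 in p75NTR-/- 1, 2 and 4. For transport kinesins it was 428 and 352, then 374, 371 and 348. The ratio of mitotic to transport TPM was 0.359, 0.599, 0.722, 0.784 and 0.547 in the same order, so p75NTR-/- 4 lay between the WT libraries. The label means of the ratio were 0.479 ± 0.170 (SD, n = 2) and 0.684 ± 0.123 (SD, n = 3). On the log2 scale the difference was 0.54, 1.07 without the libraries numbered 4 and -0.13 between the libraries numbered 4.

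**Figure D4:**
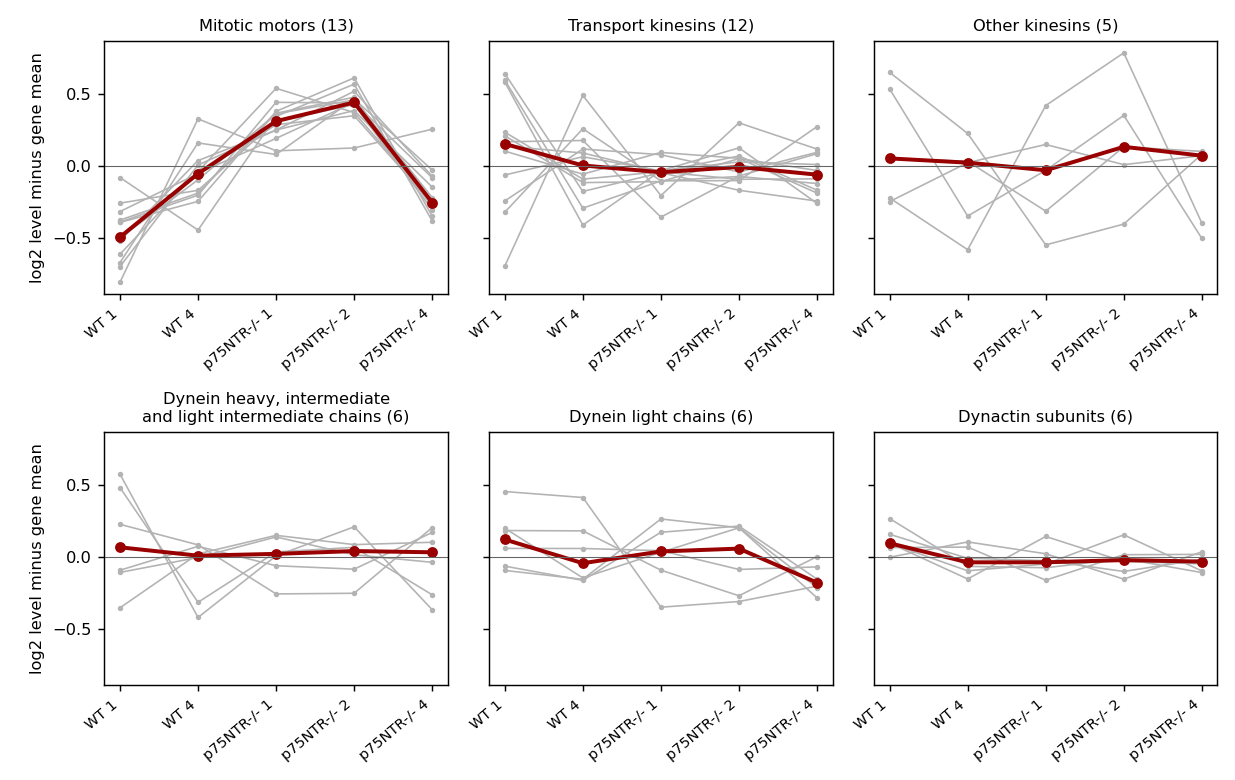
Deviation of log2(normalized count + 1) from the gene's mean over the 5 libraries, for members with a mean of at least 50, in 6 roles (number of genes in brackets). Grey lines are genes and the red line is their median. The mitotic median is lowest in WT 1 and highest in p75NTR-/- 2, with p75NTR-/- 4 under WT 4, and the other medians lie nearer to 0.

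Kinesin light chains, which link kinesin-1 to cargo, gave 3 genes with a mean of at least 50. The main one, Klc1, had normalized counts of 2420.0 and 2115 in WT 1 and WT 4 and 2119, 2344 and 2184 in p75NTR-/- 1, 2 and 4, with a log2 fold change of -0.03 ± 0.16. Klc4 had 580.0 and 304 in WT 1 and WT 4 and 345, 362 and 315 in p75NTR-/- 1, 2 and 4, with WT 1 above the other 4 libraries, and its log2 fold change of -0.30 ± 0.31 was 0.16 without WT 1. Klc2 had 193 and 265 in WT 1 and WT 4 and 265, 270.3 and 256 in p75NTR-/- 1, 2 and 4 and was lowest in WT 1.

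Among the other kinesins, Kif21a had the most negative log2 fold change of the 52 members with a mean of at least 50, and Kif24 the most positive. Kif21a, a kinesin-4 that slows microtubule growth at the cell cortex, had normalized counts of 1483 and 1104 in WT 1 and WT 4 and 644, 712 and 998 in p75NTR-/- 1, 2 and 4. The labels did not overlap, although p75NTR-/- 4 came close to WT 4. The label means were 1293 ± 268 (SD, n = 2) and 785 ± 188 (SD, n = 3), and the log2 fold change was -0.73 ± 0.27 (limma adjusted p = 0.93). It was -1.13 without the libraries numbered 4 and -0.14 between them.

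Kif24, which restrains the outgrowth of cilia at the mother centriole in cycling cells, had normalized counts of 99.1 and 77.0 in WT 1 and WT 4 and 155, 201 and 87.7 in p75NTR-/- 1, 2 and 4 (0.67 ± 0.39, not called). As in most mitotic motors, p75NTR-/- 1 and 2 were above the other 3 libraries, but here WT 4 and not WT 1 was lowest. Its paralogue in the depolymerase family, Kif2a, had 793 and 957 in WT 1 and WT 4 and 1045, 948 and 989.9 in p75NTR-/- 1, 2 and 4 (0.19 ± 0.17). Kif21b had 2436 and 2402 in WT 1 and WT 4 and 1888, 2576 and 2519.6 in p75NTR-/- 1, 2 and 4, and Kif7, a regulator of Hedgehog signalling at the cilium tip, had 314 and 169.6 in WT 1 and WT 4 and 212, 276 and 152 in p75NTR-/- 1, 2 and 4. In neither did the labels separate.

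The dynein heavy, intermediate and light intermediate chains divided evenly, with 3 of 6 log2 fold changes above 0, and 0 were called. Dync1h1, the heavy chain with the motor domain of cytoplasmic dynein-1, had normalized counts of 7863 and 3936 in WT 1 and WT 4 and 5301, 6097 and 4086 in p75NTR-/- 1, 2 and 4. WT 1 was 2.0 times the lowest library, WT 4, so the WT values lay on either side of all 3 p75NTR-/- values, and the log2 fold change of -0.13 ± 0.36 turned to 0.37 without WT 1. The heavy chain of the ciliary dynein-2, Dync2h1, had 685 and 393 in WT 1 and WT 4 and 502, 513 and 408 in p75NTR-/- 1, 2 and 4 and the same high WT 1.

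Dync1i2, the intermediate chain that binds dynactin, had normalized counts of 3655 and 4102 in WT 1 and WT 4 and 3735, 3674 and 4386 in p75NTR-/- 1, 2 and 4 (0.02 ± 0.18). Dync1li1, a light intermediate chain that holds cargo adaptors, was the 1 member above WT in all p75NTR-/- libraries. It had normalized counts of 696 and 903 in WT 1 and WT 4 and 987, 944 and 955 in p75NTR-/- 1, 2 and 4, with label means of 799 ± 146 (SD, n = 2) and 962 ± 22.5 (SD, n = 3) and a log2 fold change of 0.28 ± 0.18. Most of the distance came from WT 1, since p75NTR-/- 4 exceeded WT 4 by 0.08 on the log2 scale.

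The member with the lowest unadjusted p was Dynlt1b, a Tctex-type dynein light chain. Its normalized counts were 3763 and 3657 in WT 1 and WT 4 and 2153, 2213 and 2383 in p75NTR-/- 1, 2 and 4. The 2 WT values lay close together, as did the 3 p75NTR-/- values, and the gap between labels was several times the spread within them. The label means were 3710 ± 75.6 (SD, n = 2) and 2250 ± 119 (SD, n = 3), and the log2 fold change was -0.72 ± 0.15. It was not called by limma (adjusted p = 0.93, unadjusted p = 0.0054) nor by edgeR (adjusted p = 0.95), and was called by DESeq2 (adjusted p = 0.0075). It kept its size without the libraries numbered 4 (-0.79) and between them (-0.62).

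Dynlt1b is, however, 1 of 4 nearly identical copies on chromosome 17, and its value cannot be read apart from theirs. Its transcript ENSMUST00000179569 (GRCm38, chr17:6430112-6436296, forward strand, 5 exons, 771 bases) shares 86.9% of its 31-base words with transcripts of other genes. For Dynlt1f, ENSMUST00000179554 (chr17:6648938-6655900, reverse strand), the share is 95.8%. Over the 339 coding bases without the stop codon, Dynlt1f, Dynlt1c and Dynlt1a each differ from Dynlt1b at 1 position, A21C, counted from 1 at the first base of the start codon. The first 60 coding bases are shown for the 2 listed copies, from GENCODE M21, with position 21 in capitals.
Dynlt1b: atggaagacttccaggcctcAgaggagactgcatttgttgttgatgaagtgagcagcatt
Dynlt1f: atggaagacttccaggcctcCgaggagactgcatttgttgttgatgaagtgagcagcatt

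Dynlt1f had normalized counts of 2025 and 1891 in WT 1 and WT 4 and 2386, 2458 and 1903 in p75NTR-/- 1, 2 and 4, with a log2 fold change of 0.19 ± 0.19, in the other direction. Dynlt1b took 65.0% and 65.9% of the sum of the 2 copies in WT 1 and WT 4 and 47.4%, 47.4% and 55.6% in p75NTR-/- 1, 2 and 4. The sum itself was 5789 and 5548 normalized counts in the WT libraries and 4539, 4671 and 4286 in the p75NTR-/- libraries, again without overlap and with a log2 difference of -0.33. Forming this sum was chosen after the values of Dynlt1b were seen. Dynlt1a and Dynlt1c are not among the listed symbols, so they have no values in this sum and only their coding sequences were compared.

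Dynlt3, the remaining Tctex-type chain, shares 0% of its words with other genes. It had normalized counts of 1047 and 1045 in WT 1 and WT 4 and 865, 764 and 923 in p75NTR-/- 1, 2 and 4, with WT values almost equal and all p75NTR-/- values below them (-0.30 ± 0.17, limma adjusted p = 0.93). Dynlrb1, a roadblock-type chain, had 1723 and 1723 in WT 1 and WT 4 and 1705, 1557 and 1576 in p75NTR-/- 1, 2 and 4, likewise without overlap but with a small difference (-0.10 ± 0.15).

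The LC8 chains showed no separation of labels. Dynll1 had normalized counts of 2805 and 2687 in WT 1 and WT 4 and 3596, 3448 and 2582 in p75NTR-/- 1, 2 and 4, with p75NTR-/- 1 and 2 above the other 3 libraries (0.21 ± 0.21). Dynll2 had 1141 and 898 in WT 1 and WT 4 and 1016, 1144 and 816 in p75NTR-/- 1, 2 and 4, and both libraries numbered 4 were lowest (-0.04 ± 0.23).

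**Figure D5:**
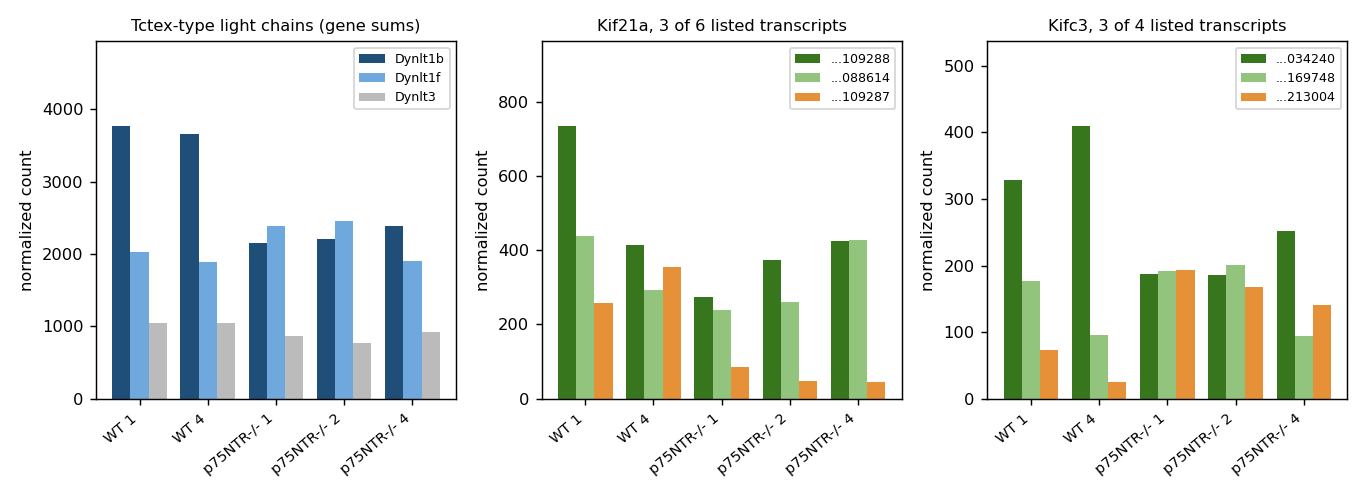
Normalized counts per library (bars from 0) of 3 Tctex-type light chains (left) and of transcripts of Kif21a (middle) and Kifc3 (right), the latter named by the last 6 digits of their identifiers. Dynlt1b has means of 3710 in the WT libraries and 2250 in the p75NTR-/- libraries, and the transcript drawn in orange is lower in the p75NTR-/- libraries for Kif21a and higher for Kifc3.

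Dynactin, the activator that ties dynein to cargo, varied little. Its 6 subunits named Dctn had log2 fold changes between -0.17 and 0.05, and 0 were called. Its further subunits Actr1a, Actr1b, Actr10, Capza1, Capza2 and Capzb are counted with the adaptors below. Their log2 fold changes lay between -0.06 (Capzb) and 0.13 (Actr1b). Dctn1 (p150Glued), which grips microtubules, had normalized counts of 2613 and 2289 in WT 1 and WT 4 and 2365, 2722 and 2287 in p75NTR-/- 1, 2 and 4, with means of 2451 ± 230 (SD, n = 2) and 2458 ± 232 (SD, n = 3). Its change of 0.00 took either sign with the scaling. Dctn2 (dynamitin) had 3805 and 3021 in WT 1 and WT 4 and 3001, 3136 and 2932 in p75NTR-/- 1, 2 and 4, with WT 1 above 4 close libraries (-0.17 ± 0.18).

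Dctn3 and Dctn4 were below WT in all p75NTR-/- libraries. Dctn3 had normalized counts of 778 and 780.2 in WT 1 and WT 4 and 665, 752 and 753 in p75NTR-/- 1, 2 and 4 (-0.11 ± 0.16) and Dctn4 had 1265 and 1127 in WT 1 and WT 4 and 1114, 1057 and 1121 in p75NTR-/- 1, 2 and 4 (-0.12 ± 0.16). In both, the p75NTR-/- library nearest to WT almost met the lower WT value.

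Of 35 adaptors and regulators of motors, with the further dynactin subunits among them, 33 were listed and 32 had a mean of at least 50. Of these, 13 had a log2 fold change above 0 and 19 below, and 0 were called (median -0.06). The lowest unadjusted p values belonged to Spag9 (JIP4), a kinesin-1 and dynein adaptor, with normalized counts of 11072 and 6864 in WT 1 and WT 4 and 6828, 6833 and 6445 in p75NTR-/- 1, 2 and 4 (-0.38 ± 0.25), to Bicd1, a dynein adaptor, with 227 and 270.5 in WT 1 and WT 4 and 148, 181 and 246 in p75NTR-/- 1, 2 and 4 (-0.40 ± 0.27), and to Spdl1 (Spindly), which activates dynein at kinetochores, with 126 and 207 in WT 1 and WT 4 and 278, 276 and 173 in p75NTR-/- 1, 2 and 4 (0.55 ± 0.34). Spdl1 had p75NTR-/- 1 and 2 highest, as most mitotic motors did. Kif1bp, the binding protein that matched the spelling and is counted among these 33 too, had 1677 and 1469.9 in WT 1 and WT 4 and 1300.1, 1204 and 1500.2 in p75NTR-/- 1, 2 and 4 (-0.24 ± 0.18).

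Single transcripts were tested in the same way over 22227 transcripts. limma called 0 of the 121 member transcripts (background 0.0135%), and 4 of the 82 with a mean of at least 50 had an unadjusted p under 0.05 (1.61% of all). edgeR called 0 (background 0.0%), and DESeq2 called 2 (background 0.126%), the transcript of Dynlt1b and ENSMUST00000109287 of Kif21a. The labels did not overlap for 14 of the 82, over both directions again near the share of all transcripts (16.2%). Of these, 5 were above (8.77% of all) and 9 below (7.4% of all). Each transcript here is an estimate by Salmon, and transcripts of a gene that share their bases are told apart by splice junctions and read shares.

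ENSMUST00000109287 of Kif21a (chr15:90933282-91049818, reverse strand, 33 exons, 4701 coding bases) had 258 and 354 normalized counts in WT 1 and WT 4 and 85.1, 46.9 and 44.4 in p75NTR-/- 1, 2 and 4. The labels were far apart, with a log2 fold change of -2.41 ± 0.39 (limma adjusted p = 0.51, DESeq2 adjusted p = 0.00039). It made up 17.4% and 32.0% of the Kif21a sum in the WT libraries and 13.2%, 6.58% and 4.44% in the p75NTR-/- libraries. Between the libraries numbered 4 alone the log2 difference was -2.97, against -0.14 for the gene sum. It has 0 exonic bases that lie in no other Kif21a transcript. The other 2 main transcripts, ENSMUST00000109288 (-0.65 ± 0.37) and ENSMUST00000088614 (-0.26 ± 0.37), overlapped between labels.

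Kifc3, a minus-end directed kinesin-14 at adherens junctions, had transcripts that went in opposite directions while its sum stayed level. The gene sum had normalized counts of 609 and 545 in WT 1 and WT 4 and 606, 589 and 498 in p75NTR-/- 1, 2 and 4 (-0.04 ± 0.18). ENSMUST00000034240 (chr8:95099828-95142547, reverse strand, 20 exons) had 329 and 409 in WT 1 and WT 4 and 187, 186 and 252 in p75NTR-/- 1, 2 and 4 (-0.83 ± 0.25, limma adjusted p = 0.96). ENSMUST00000213004 (chr8:95100302-95113342, 18 exons, 114 bases of its own), which starts further downstream, had 72.6 and 25.0, then 194, 167 and 141 (1.93 ± 0.52, limma adjusted p = 0.96). The latter made up 11.9% and 4.58% of the sum in the WT libraries and 32.0%, 28.4% and 28.2% in the p75NTR-/- libraries. Neither transcript was called by limma, edgeR or DESeq2.

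The short form of Kif1b, chosen after its values were seen, was lowest in both libraries numbered 4, under either label. ENSMUST00000030806 (chr4:149233734-149307623, reverse strand, 21 exons, 3450 coding bases, 4750 bases of its own) ends upstream of the last exons of the long forms, which have 5310 and 5448 coding bases. It had 1490 and 519 normalized counts in WT 1 and WT 4 and 1612, 1365 and 392 in p75NTR-/- 1, 2 and 4. These were 14.5% and 8.91% of the Kif1b sum, then 25.3%, 23.3% and 7.05%.

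In Kif13a, 94.4% of the sum came from ENSMUST00000056978 (chr13:46749087-46929718, reverse strand, 38 exons), with 1371 and 1017 normalized counts in the WT libraries and 1127, 1218 and 1051 in the p75NTR-/- libraries (-0.06 ± 0.23). A short transcript, ENSMUST00000223881 (chr13:46749095-46786638, 16 exons), had 20.6 and 102 normalized counts in the WT libraries and 7.92, 0 and 0 in the p75NTR-/- libraries. It made up 2.13% of the sum, its mean was under 50, and it was not called by limma (adjusted p = 0.96) or DESeq2. The paper's supplement lists this transcript as lower in p75NTR-/- cells, with a DESeq2 adjusted p under 0.05. The methods of the paper also set a minimum mean of 50 for a call. A count of 0 allows up to 3.60 and 3.17 normalized counts in p75NTR-/- 2 and 4.

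The 12 members with a mean under 50 normalized counts were Dynlrb2, Kif17, Kif19a, Kif26a, Kif26b, Kif27, Kif28, Kif5a, Kif6, Kif9, Kifc2 and Klc3. Most are known from cilia or from neurons, such as the axonal kinesin Kif5a, with normalized counts of 29.4 and 37.5 in WT 1 and WT 4 and 26.7, 39.6 and 35.9 in p75NTR-/- 1, 2 and 4. Kif19a, which sets the length of motile cilia, had 66.7 and 23.9 in WT 1 and WT 4 and 5.94, 26.4 and 12.7 in p75NTR-/- 1, 2 and 4, with WT 1 above the other 4 libraries. At these levels many values rest on few counts. Without the minimum mean of 50 for a call, limma still called 0 members.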

How the data were processed

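RNA-Seq libraries of mouse NSPCs were analysed, 2 with the label WT and 3 with the label p75NTR-/-. The paper describes its RNA-Seq data as 4 replicas from independent preparations, more than either label has here. The authors made stranded mRNA libraries from 500 ng RNA and, per the labels, used FastQC, Salmon 0.10.2, DESeq2 1.22.0 and R 3.6.1 with GRCm38.p6. As a deposited signal, every library has counts over its size factor with 0.5 added, and this 0.5 was taken off to give normalized counts. In each library 100% of these were whole multiples of 1 step (tolerance 0.011), so the counts behind them could be recovered. A second deposited signal is the authors' TPM, used only for levels and sums. The authors' own DESeq2 results, a deposited baseMean score, log2 fold change and p-value, were not used, and 0 other columns of per-sample values were left out.

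The table has 22530 lines, of which 303 repeats were dropped. It lists 22227 transcripts of 12572 symbols, and transcripts were summed to 12588 genes. Gene sums and transcripts were compared with limma 3.58.1 (R 4.3.3) on log2(normalized count + 1) over the whole table, with no covariate. The design assumed this unit. edgeR 4.0.16 (quasi-likelihood) and DESeq2 1.42.0 were run on recovered counts as alternatives, beside other pseudocounts, filters and scalings, a replicate block and each library left out. The scripts were tested on simulated data. Coordinates are those of GENCODE M21 (22199 transcripts matched, with 121 of 121 of the members), and promoters those of RefSeq. Python 3.11.15, pandas 2.3.3, numpy 2.4.6 and matplotlib 3.10.9 were used.

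Members, lists and the rule for named genes were chosen with earlier results of these data known. Named were called members, the 10 highest in TPM, the 5 largest changes each way, members whose labels do not overlap, a leading member per role, Kif13a, the 4 transcripts and, per list, the 3 other genes of lowest p. Further members are named to describe their role and were chosen after their values were seen. Likeness to Kif11 is not given, since it would rest on 5 libraries.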

Additional observations from a re-analysis of the deposited data

How the results depend on the processing

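The counts of called members were 0 under each setting except DESeq2, which called 1 gene and 2 transcripts. The median of the mitotic motors stayed above 0 in each setting except between the libraries numbered 4 alone (-0.10), a comparison added after the data were seen. Without those libraries it was 0.84, and with single libraries left out it ran from 0.26 to 0.71. The transport median was -0.21 without the libraries numbered 4 and between -0.226 and -0.0196 with single libraries left out. The log2 ratio of mitotic to transport TPM was 1.07 without the libraries numbered 4, -0.13 between them and between 0.18 and 0.91 with single libraries left out.

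Of the 52 members with a mean of at least 50, 23 turned sign under some setting, 20 of them without WT 1. The cause was not tested beyond the library left out. This count leaves out the comparison between the libraries numbered 4 alone. There 18 of the 52 members were above 0, against 27 in the main fit, and 1 of the 13 mitotic motors, against 13. The 28 members named by the rule gave 11 of the 23. Dctn1 (0.00) was -0.00704 under DESeq2, -0.0074 and -0.00382 under edgeR with DESeq2 size factors and with TMM, -0.0426 without the libraries numbered 4 and -0.0725 with a replicate block. With single libraries left out it ran from -0.0925 to 0.0989. The ranges over the same leave-outs were -0.332 to 0.00030 for Dctn2, -0.627 to 0.371 for Dync1h1, -0.0657 to 0.101 for Dync1i2, -0.216 to 0.13 for Dynll2, -0.282 to 0.0454 for Kif13a, -0.639 to 0.356 for Kif1a, -0.797 to 0.0237 for Kif1b, -0.0745 to 0.287 for Kif5b, -0.117 to 0.0508 for Kifc3 and -0.769 to 0.162 for Klc4. The other 12 were Dctn5, Dync2h1, Kif13b, Kif18a, Kif21b, Kif3a, Kif3b, Kif3c, Kif5c, Kif7, Klc1 and Klc2, with the widest ranges in Kif5c (-0.42 to 0.768) and Kif18a (-0.166 to 0.972). Dynlt1b was the 1 of the 28 to pass the threshold elsewhere (DESeq2, -0.73).

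The replicate numbers 1 and 4 occur under both labels. Deviations from the label means correlated at 0.26 for the libraries numbered 1 and at 0.48 for those numbered 4, over 10786 genes. WT 1 and p75NTR-/- 2, which share no number, also correlated at 0.48, more than the libraries numbered 1. WT 4 and p75NTR-/- 4 stood together on the first principal component. With 2 WT libraries, the deviations of WT 1 and WT 4 are mirror images, so these correlations are not separate checks. The labels do not say what a number marks, and with 2 numbers in common, pairing was not settled and no block entered the reported comparison. With a replicate block, 0 members were called, the mitotic median was 0.33 and the transport median -0.15. With 2 and 3 libraries, a missing call does not show that a gene was equal under both labels, and members with low means are limited by their counts.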
